A study of Mus musculus with 44 samples.

Results

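The difference between liver and white adipose tissue (fat) was measured within single mice and compared between mice with a disrupted Surf1 gene (KO) and wild-type mice (WT). An animal entered if its number occurred in the titles of both a liver array and a fat array. This gave 12 animals, 6 KO (KO_164, KO_175, KO_231, KO_232, KO_237 and KO_241) and 6 WT (WT_135, WT_136, WT_138, WT_139, WT_148 and WT_165), with 24 of the 44 arrays of the series. KO and WT mice were females of strain B6D2F1/J aged 8 to 12 months, and no treatment is given for either group. The allele that disrupts Surf1 is not described in the sources used here. For each probe of the Illumina beadchip, the deposited log2 signal of an animal's fat was subtracted from that of its liver, so that a positive value means more signal in liver. The number in the title was taken to be the animal's. If it is not, the pairs are not within animals.

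The protein made from Surf1 helps to assemble complex IV (cytochrome c oxidase), the enzyme that passes electrons to oxygen at the end of the mitochondrial respiratory chain. Liver is built mainly of hepatocytes, which secrete plasma proteins and make glucose, bile acids and lipoproteins. White fat is built of adipocytes, which store triglyceride and secrete hormones, with blood vessels and immune cells between them. The liver-minus-fat difference of a transcript is therefore a measure of tissue identity. The question here is whether this difference is the same size in KO as in WT mice. Complex IV assembly itself was not measured. In bulk tissue, fewer cells of a type and less RNA per cell cannot be told apart.

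Results are given by probe identifier, because the gene names paired with the deposited identifiers did not follow the tissues. Of 20 probes named for hepatocyte genes, among them albumin and transthyretin, 0 were over 1 log2 higher in WT liver than in WT fat and 2 were over 1 log2 lower. Of 14 probes named for adipocyte genes, 0 were over 1 log2 lower in liver and 2 were over 1 log2 higher. Of 31 probes on 6 lists for other cell types, 1 was over 1 log2 higher in liver and 0 were lower. Among all 25697 probes, 5.46% were over 1 log2 higher in WT liver and 4.38% lower. The 2 probes named for Surf1 were detected on 0 and 1 of the 24 arrays, so the disrupted gene itself could not be read. No gene or pathway is named from these values.

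Within each tissue, KO and WT arrays were alike in the share of probes detected. Between tissues the share was higher in fat, without overlap in WT and with a slight overlap in KO. It was 44.1% to 46.7% in KO liver, 43.1% to 46.2% in WT liver, 46.5% to 51.1% in KO fat and 47.8% to 50.9% in WT fat. Brightness was not alike. The median non-normalized intensity of the liver arrays was 134.7 to 142.7 in the 4 KO animals numbered above 200 and 162.9 to 170.2 in the 2 KO animals below 200, against 167.4 to 201.5 in the 6 WT animals, all numbered below 200. In fat it was 111.8 to 124.7 in KO and 114.6 to 133.8 in WT. Array brightness, the animal's number and genotype cannot be told apart in the animals above 200. Of all probes, 14077 were detected on at least 6 of the 24 arrays and were tested.

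Liver and fat of WT animals differed at most tested probes. Liver minus fat differed from 0 at 11033 of 14077 probes (78.4%), 7277 with liver higher (51.7%) and 3756 with liver lower (26.7%) (limma over the 12 within-animal differences, Benjamini-Hochberg adjusted p under 0.05). The lower and upper quartiles of the WT mean difference were -0.23 and 0.43 log2, and its extremes were -7.50 and 8.09. It was past the threshold and over 1 log2 at 1403 probes with liver higher (9.97%) and 1125 with liver lower (7.99%). It was over 3 log2 at 385 probes with liver higher (2.73%) and 124 with liver lower (0.881%). Every WT liver lay above every WT fat at 5408 probes (38.4%) and below every WT fat at 2576 (18.3%).

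These signs rest on values that the authors normalized separately in each tissue. The median of all probes was 7.35 in liver and 7.09 in fat, and the 7558 probes detected on 0 of the 24 arrays had a median WT liver minus fat of 0.30 log2. With every animal's difference centred on its median, 4982 probes passed with liver higher and 5129 with liver lower. After quantile normalization of the 24 arrays together the counts were 4459 and 5414, and with background correction of the non-normalized intensities they were 4408 and 5491. So 66% of the calls had liver higher on the deposited values and 44.5% to 49.3% under those other scalings. The median difference of the tested WT probes moved by over 0.1 log2, being 0.17 on the deposited values, 0.00 after centring, -0.03 after joint normalization and -0.09 after background correction. A shift common to both genotypes cancels where KO is compared with WT.

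The largest differences were several log2 wide in every animal. ILMN_2632912 had the highest WT mean among probes detected on all 24 arrays. Its liver minus fat was 7.20 to 7.58 with a median of 7.40 in KO animals, and 6.80 to 7.34 with a median of 6.93 in WT animals. Liver levels of this probe stood at 14.996 to 15.14 in KO and 14.88 to 15.18 in WT, near the top of the deposited scale (15.38), and fat levels at 7.44 to 7.80 in KO and 7.83 to 8.27 in WT. ILMN_2663914 followed it, with 7.02 to 7.47 (median 7.33) in KO and 6.38 to 7.31 (median 6.97) in WT. All animals of both genotypes had over 6 log2 more signal in liver at these probes, and the genotypes overlapped at both.

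On the fat side, ILMN_1222104 had the most negative WT mean among probes detected everywhere, at -6.12 ± 0.09 (SD, n = 6) in KO and -6.14 ± 0.25 (SD, n = 6) in WT. ILMN_1233896 stood at -5.42 ± 0.39 (SD, n = 6) in KO and -5.78 ± 0.41 (SD, n = 6) in WT. Its fat level, 15.14 to 15.31 in KO and 14.75 to 15.31 in WT, was close to the top of the scale. Its liver level varied more, from 9.33 to 10.47 in KO and from 8.96 to 9.96 in WT. KO minus WT passed the threshold at none of the 4 probes named for their large tissue difference (limma adjusted p of 0.15, 0.241, 0.972 and 0.472).

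Some probes were read in only 1 of the tissues. On all 12 liver arrays and 0 of 12 fat arrays 324 probes were detected (2.3% of those tested), and on all 12 fat arrays and 0 of 12 liver arrays 482 were (3.42%). For these the dim tissue gives only a bound, computed against the lowest signal among detected probes of each array. ILMN_2655871 was at least 234-fold higher in liver than in fat of KO animals and at least 211-fold higher in WT animals, with measured means of 14.97 and 6.94 in KO liver and fat and 14.82 and 6.93 in WT liver and fat. ILMN_2738707 was at least 201-fold higher in KO liver and at least 210-fold higher in WT liver. ILMN_1223963 was at least 127-fold higher in fat than in liver of KO animals and at least 104-fold higher in WT animals, and ILMN_2825260 at least 71.8-fold and 57.4-fold. The detection filter let these probes in through 1 tissue, which favours a difference between the tissues. It did not force one on the deposited values, where the WT mean of the 482 probes ran from -6.93 to 0.14.

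The tissue difference of KO animals followed that of WT animals closely. Across the 14077 tested probes, which are not independent replicates, the KO and WT means of liver minus fat had a Pearson correlation of 0.98 and a Spearman correlation of 0.95, and the slope of KO on WT was 0.96. In KO animals 10854 probes differed between the tissues (77.1%), 7227 with liver higher (51.3%) and 3627 with liver lower (25.8%; limma, adjusted p under 0.05). Past the threshold and over 1 log2, 1350 had liver higher (9.59%) and 1039 liver lower (7.38%). Over 3 log2 these were 369 (2.62%) and 114 (0.81%), so that the KO counts lay slightly below the WT counts in each class. Every KO liver lay above every KO fat at 5541 probes (39.4%) and below at 2705 (19.2%). By this measure the KO counts were the higher, against 5408 and 2576 in WT. Both genotypes passed in the same direction at 9876 probes (70.2%), and in opposite directions at 19 (0.135%). At 959 KO alone passed (6.81%) and at 1138 WT alone (8.08%), without a test of the difference at each. Between pairs of animals, the correlation of liver minus fat over probes averaged 0.955 within KO (15 pairs), 0.953 within WT (15 pairs) and 0.942 between a KO and a WT animal (36 pairs). The ranges were 0.926 to 0.976, 0.929 to 0.981 and 0.914 to 0.965, and they overlapped.

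**Figure D1:**
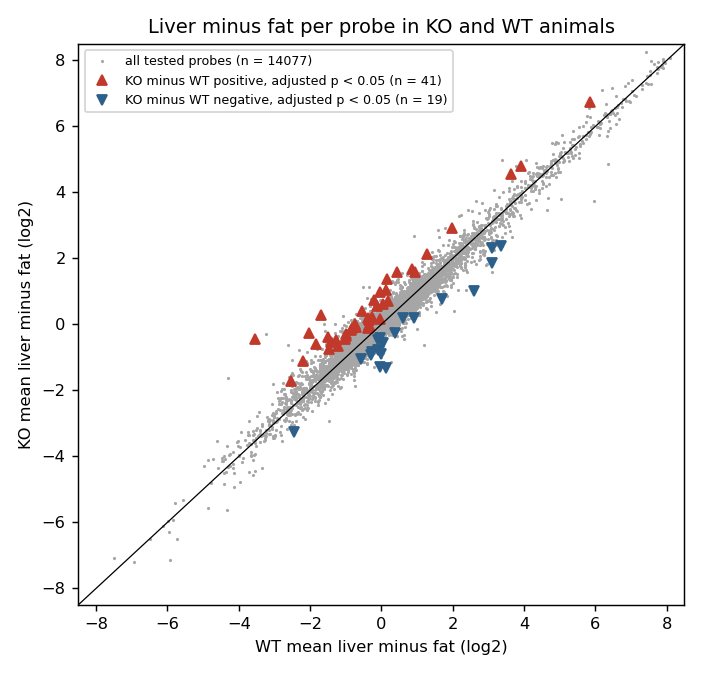
Mean liver minus fat (log2) of each tested probe in KO animals (vertical axis) against WT animals (horizontal axis), with the line of equality. Grey points are the 14077 tested probes, and triangles mark the 41 probes whose difference was higher and the 19 whose difference was lower in KO with an adjusted p under 0.05, which lie on both sides of a narrow band.

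By 2 per-animal measures of size, the tissues of KO animals were slightly less far apart. The share of tested probes over 1 log2 apart was 17.1%, 17.7% and 18.7% (lowest, median and highest) in KO animals, against 18.1%, 19.2% and 20.3% in WT animals. Its mean was 17.8% ± 0.61 in KO and 19.1% ± 0.80 in WT (SD, n = 6 each), a difference of -1.28 percentage points (exact permutation test over animals, two-sided p = 0.013, adjusted 0.026 over the 2 measures tested). Only KO_237 and KO_164 reached into the WT range. The median absolute difference over tested probes was 0.370 ± 0.014 log2 in KO and 0.386 ± 0.0089 in WT (SD, n = 6 each), a difference of -0.016 (exact permutation test, two-sided p = 0.0433, adjusted 0.0433). The smallest p this design allows is 0.00216.

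With 1 animal left out, the share had an exact permutation p of 0.00866 to 0.026. Adjusted over the 2 measures, it did not pass in 3 of the 12 fits, those without KO_175, KO_232 or KO_241 (exact permutation, adjusted p = 0.052 in each). The median absolute difference passed only without KO_237 or WT_165 (exact permutation p of 0.00433 to 0.0931 over the 12 fits). Among animals numbered below 200 alone, 2 KO and 6 WT, the share differed by -1.41 percentage points (exact permutation p = 0.143) and the median absolute difference by -0.0233 (exact permutation p = 0.0357, the smallest possible there, adjusted 0.0714). The liver arrays had a median intensity of 134.7 to 170.2 in KO and 167.4 to 201.5 in WT, and the part of brightness in this result was not tested.

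**Figure D2:**
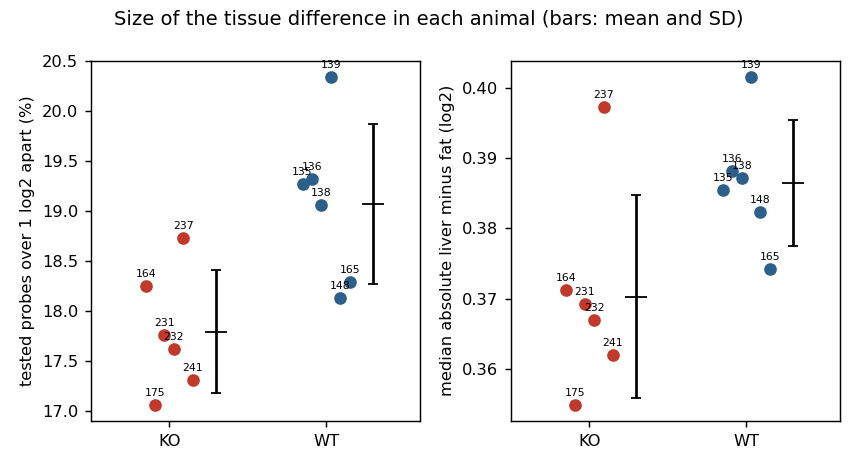
Share of the 14077 tested probes with over 1 log2 between liver and fat (left, percent) and median absolute liver minus fat (right, log2) in each KO and WT animal, labelled by number, with the mean and SD beside the points; the axes do not start at 0. KO animals lie at 17.1% to 18.7% and WT animals at 18.1% to 20.3%.

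KO and WT animals differed in liver minus fat at 60 of 14077 probes (0.426%), 41 with a higher value in KO (0.291%) and 19 with a lower one (0.135%; limma, adjusted p under 0.05). At an unadjusted p under 0.05 there were 2062 (14.6%). The sizes at the 60 probes ran from -1.58 to 3.09 log2, with a median absolute size of 0.76, and 13 of them exceeded 1 log2. KO and WT animals did not overlap at 176 of all tested probes (1.25%), with KO above at 94 (0.668%) and below at 82 (0.583%), and 49 of the 60 were among them, which the choice of the 60 on the same contrast favours. Of the 60, 36 were detected on all 24 arrays (60%, against 57.4% of all tested probes). Of the probes detected on all 24 arrays, 0.445% were among the 60. Of the 482 detected on all fat and no liver arrays 7 were (1.45%), and of the 324 detected on all liver and no fat arrays 0.

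This count rested on single animals. Leaving out 1 animal with both its arrays gave 0 probes without KO_232, 1 without KO_241, 4 without WT_138, 12 without WT_139, 22 without WT_148, 33 without WT_165, 36 without KO_175, 44 without KO_231, 85 without KO_237, 92 without WT_135, 106 without KO_164 and 384 without WT_136. Without KO_232, 1657 probes had an unadjusted limma p under 0.05, against 2062 with it. Among the animals below 200 alone, 0 passed in limma and 1156 had an unadjusted p under 0.05. There the median absolute size at the 60 probes was 0.67 log2, on samples that had helped to choose them.

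WT_136 stood out as the WT animal closest to the KO animals. At 7 of the 60 probes its liver minus fat lay within the range of the KO animals, at 2 for WT_148, at 2 for WT_165 and at 0 for WT_135, WT_138 and WT_139. Its liver-minus-fat profile over all tested probes correlated at 0.957 on average with the KO animals and at 0.948 with the other WT animals, and WT_135 at 0.952 with both. For the other 4 WT animals the correlations were 0.928 to 0.948 with KO and 0.946 to 0.960 with WT. All 60 probes passed without WT_136.

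The movement behind the 60 probes was split over the tissues. The change between KO and WT was larger in fat at 39 of them (65%, against 58.2% of all tested probes) and larger in liver at 21. Over all tested probes the median absolute KO minus WT was 0.053 log2 in liver and 0.072 in fat. Over the 60 it was 0.267 in liver and 0.469 in fat. Of the 41 probes with a higher value in KO, 41 were lower in KO fat and 38 higher in KO liver. Of the 19 with a lower value, 18 were higher in KO fat and 18 lower in KO liver. Of the 60, 10 were detected on no liver array (16.7%), so the size and sign of their liver change are not readable. They are included in the counts above. Shares of these directions over all tested probes are not given. The counts describe the chosen probes, since a difference between tissues is largest where they move apart.

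**Figure D3:**
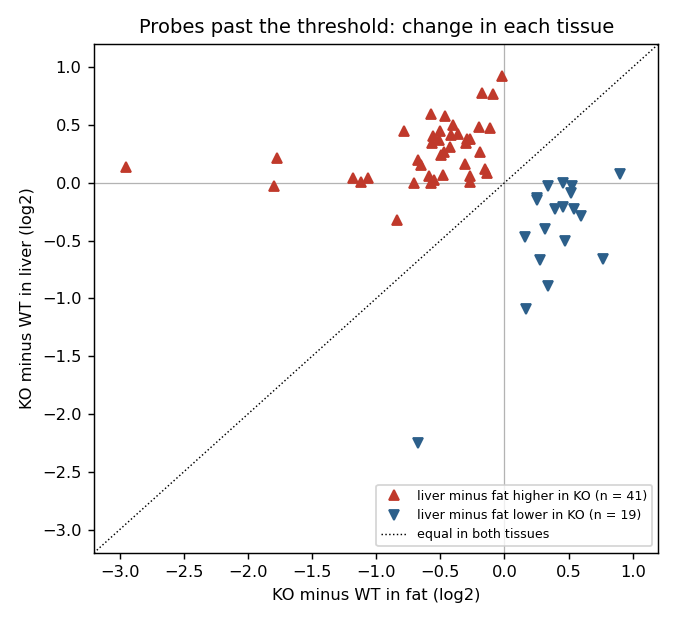
KO minus WT in liver (vertical axis, log2) against KO minus WT in fat (horizontal axis, log2) for the 60 probes past the threshold, with upward triangles for the 41 with a higher and downward triangles for the 19 with a lower liver minus fat in KO; the dotted line marks equal change in both tissues. At 39 probes the fat change is the larger, and the widest fat change is -2.95.

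The tissue difference was smaller in KO than in WT at 33 of the 60 probes (55%, against 54.6% of all tested probes) and larger at 27. In WT it passed the threshold with liver lower at 29 (48.3%, against 26.7% of all tested probes), with liver higher at 17 (28.3%, against 51.7%) and not at all at 14. These signs move with the offset between the tissues described above. At 14 probes (23.3%, against 6.81% of all tested probes) it passed in KO and not in WT, and at 12 (20%, against 8.08%) in WT and not in KO. The direction was opposite, with both genotypes past the threshold, at 3 (5%, against 0.135% of all tested probes). Among the probes called under each other scaling it was opposite at 9 of 125 with background correction and 5 of 74 on plain log2 values. It was opposite at 4 of 66 after joint normalization and at 4 of 62 after centring. The share over all tested probes is not given for those scalings. The choice of the called probes on the contrast between genotypes favours all of the shares among them.

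ILMN_2701486 had the smallest p of all. Its liver minus fat was 1.82, 2.05 and 2.56 (lowest, median and highest) in KO animals, against 1.19, 1.24 and 1.41 in WT animals, so that the genotypes did not overlap. KO minus WT was 0.85 log2 (SE 0.12, 95% interval 0.60 to 1.11, limma adjusted p = 0.0169). With background correction of the intensities it was 1.32. The readable part of the difference was in liver, at 9.12 ± 0.24 in KO and 8.35 ± 0.09 in WT (SD, n = 6 each). In fat the probe was at 6.98 ± 0.13 in KO and 7.07 ± 0.05 in WT, and was detected on 3 of 12 fat arrays. A fall in fat could therefore not be read, and no fold against fat is given. In the liver arrays of animals without fat, 2 KO and 2 WT, KO minus WT was 0.39, against 0.77 in the paired livers.

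ILMN_2711743 was close to even between the tissues in WT and higher in liver in KO. Its liver minus fat was 1.01, 1.41 and 1.56 in KO animals, against -0.35, -0.02 and 0.87 in WT animals, where the highest WT value was that of WT_136. KO minus WT was 1.23 (SE 0.18, limma adjusted p = 0.0169), made of 0.45 in liver and -0.78 in fat. Fat levels were 8.51 ± 0.11 in KO and 9.29 ± 0.45 in WT (SD, n = 6 each), with WT_136 at 8.53 among the KO values of 8.39 to 8.66.

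ILMN_3154640 and ILMN_2824760 were the 2 probes of smallest p with opposite directions. ILMN_3154640 had a liver minus fat of -0.50, -0.24 and -0.11 in KO animals, against 0.21, 0.34 and 0.60 in WT animals. On the deposited values, all 6 KO animals had more signal in fat and all 6 WT animals more in liver. The lowest WT value lay below the median of 0.30 of undetected probes in WT. Signs of single animals under other scalings are not given. KO minus WT was -0.62 (SE 0.10, limma adjusted p = 0.0216), with -0.23 in liver and 0.39 in fat. Its directions were opposite and past the threshold under every scaling tried, from -0.58 to -0.26 in KO and from 0.20 to 0.37 in WT.

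At ILMN_2824760 liver minus fat was -0.23, 0.34 and 0.91 in KO animals, against -0.79, -0.56 and -0.29 in WT animals. KO_164 was the 1 KO animal below 0, and the genotypes did not overlap. KO minus WT was 0.95 (SE 0.17, limma adjusted p = 0.030), with 0.45 in liver and -0.51 in fat. After centring on each animal's median the KO mean was 0.23 and did not pass (limma adjusted p = 0.0905), while it passed with a mean of 0.32 after joint normalization (adjusted p = 0.0267), 0.38 with background correction (0.0389) and 0.38 on plain log2 values (0.0127). The KO mean was positive under each of these scalings.

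**Figure D4:**
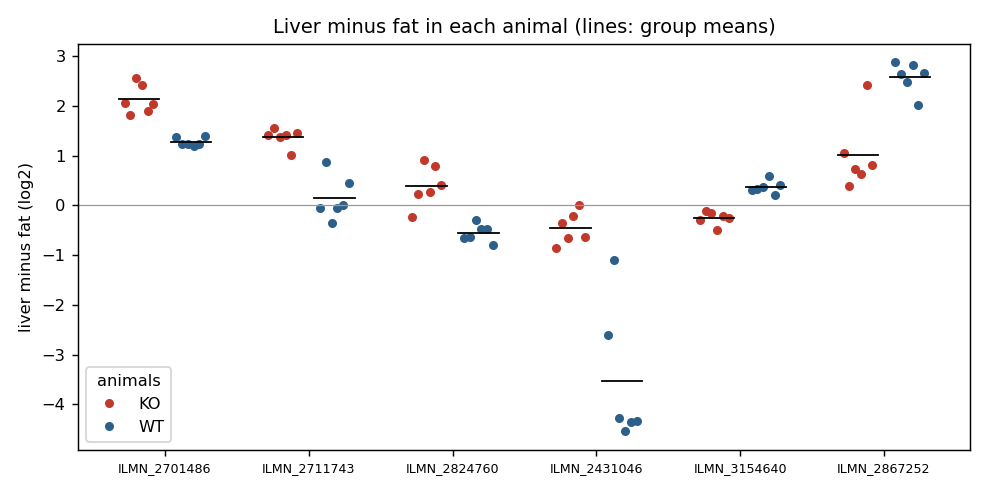
Liver minus fat (log2) of 6 probes in each KO animal (left of each pair of columns) and WT animal (right), with lines at the group means. KO animals lie above every WT animal at ILMN_2701486, ILMN_2711743, ILMN_2824760 and ILMN_2431046 and below every WT animal at ILMN_3154640, while at ILMN_2867252 KO_237 lies among the WT animals.

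The largest difference of the 60 was at ILMN_2431046, singled out after its values were seen. Fat levels were 7.57, 8.03 and 8.38 (lowest, median and highest) in KO animals, against 8.34, 11.74 and 11.99 in WT animals. In WT, WT_138, WT_139, WT_148 and WT_165 lay at 11.74 to 11.99, WT_135 at 9.996 and WT_136 at 8.34, the last within the KO range. Liver levels were low in both genotypes, 7.44 to 7.62 in KO and 7.25 to 7.47 in WT. Liver minus fat was -0.45 ± 0.32 in KO and -3.53 ± 1.39 in WT (SD, n = 6 each), and KO minus WT was 3.09 (SE 0.47, limma adjusted p = 0.0216). Liver minus fat did not pass in KO on the deposited values (limma adjusted p = 0.228), and with background correction it passed at -1.47 in KO (adjusted p = 0.00133) and -5.53 in WT.

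ILMN_2867252 was the reverse case, with a smaller liver excess in KO. Liver minus fat was 0.38, 0.77 and 2.42 in KO animals, against 2.02, 2.65 and 2.88 in WT animals, and KO minus WT was -1.58 (SE 0.27, limma adjusted p = 0.0289). Liver levels were 7.62 to 8.12 in 5 KO animals and 10.40 in KO_237, against 9.76 to 11.40 in WT. Fat levels were 7.07 to 7.24 in the same 5 KO animals and 7.98 in KO_237, against 7.73 to 8.53 in WT. KO_237 thus had WT-range levels in both of its tissues. KO minus WT was -2.25 in liver and -0.67 in fat. Fat of those 5 KO animals lay near the median of all probes in fat (7.09), and the probe was undetected in KO_164 fat. A further fall in fat could therefore not be read, and its part in the contrast was not tested. Without pairing by animal its limma adjusted p was 0.114, and it did not pass.

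With 1 animal left out, the sizes at these 6 probes, ILMN_2701486, ILMN_2711743, ILMN_3154640, ILMN_2824760, ILMN_2431046 and ILMN_2867252, moved less than their calls. Those fits share most animals with the fit that chose the probes, so similar sizes there are no independent support. Without KO_232 their limma adjusted p was 0.0668 to 0.0817 and without KO_241 it was 0.0501 to 0.0732, so that none passed, while KO minus WT stayed at 0.80 or more at ILMN_2701486 and at 3.04 or more at ILMN_2431046 in those fits. Without WT_138, ILMN_3154640, ILMN_2867252, ILMN_2824760 and ILMN_2431046 did not pass, and without WT_139, ILMN_2867252 and ILMN_2824760 did not. ILMN_2824760 also did not pass without WT_148 or WT_165. In the animals below 200, KO minus WT was 0.66 at ILMN_2701486, 1.34 at ILMN_2711743, -0.57 at ILMN_3154640, 0.56 at ILMN_2824760, 2.94 at ILMN_2431046 and -1.87 at ILMN_2867252, with limma adjusted p of 0.057 to 0.513.

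The livers of animals without fat did not all follow the paired livers at these probes. KO minus WT had the other sign at ILMN_2867252 (0.30, against -2.25 in the paired livers), ILMN_3154640 (0.15, against -0.23) and ILMN_2431046 (-0.37, against 0.13). It had the same sign and was small at ILMN_2711743 (0.02, against 0.45) and ILMN_2824760 (0.05, against 0.45).

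The spread of tissue differences between animals of 1 genotype was typically below their size and above the difference between genotypes. The median SD of liver minus fat over animals was 0.169 log2 in KO and 0.180 in WT. The median absolute mean difference was 0.346 in KO and 0.363 in WT, and the median absolute KO minus WT was 0.096. Among the 8085 probes detected on all 24 arrays, the SD exceeded 0.5 at 252 in KO and at 364 in WT. The steadiest in WT were ILMN_2710312, at -0.53 to -0.08 in KO and -0.40 to -0.32 in WT, and ILMN_2639925, at -0.49 to -0.10 in KO and -0.31 to -0.23 in WT. Both stayed negative in each of the 12 animals, and in both genotypes' means under every scaling tried.

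The most variable probes in WT set WT_135 and WT_136 apart from the others. ILMN_2654651 had WT liver minus fat of -2.68 and -2.77 in these 2 animals and 0.60 to 1.86 in the other 4, and KO values of -3.66 to -0.29. Their livers held 8.89 and 9.15 of this probe, against 11.52 to 12.34 in the other WT livers. ILMN_2669782 ran the other way, with WT liver minus fat of 3.03 and 3.52 in WT_135 and WT_136 and 0.59 to 0.89 in the other 4, and KO values of 1.95 to 3.32. KO minus WT passed at neither (limma adjusted p of 0.562 and 0.207).

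Among the 364 variable probes in WT, WT_135 and WT_136 were the 2 highest or the 2 lowest of the 6 at 239 (65.7%). Among all 8085 probes detected everywhere that share was 33.2%, and for the next pair of WT animals, WT_138 and WT_139, the shares were 28.8% and 23%. In the KO animals the leading pair, KO_164 and KO_237, stood together at one end at 27% of 252 variable probes and at 20.4% of all. In each tissue's levels WT_135 and WT_136 stood together at one end at 54.9% of the variable probes in liver and 48.9% in fat. The highest share of any other WT pair was 28.3% in liver and 26.9% in fat. Shares over all probes are not given for single tissues. The probes were chosen for their spread in these animals, so these shares are descriptions. What sets the 2 animals apart is not given in the labels.

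**Figure D5:**
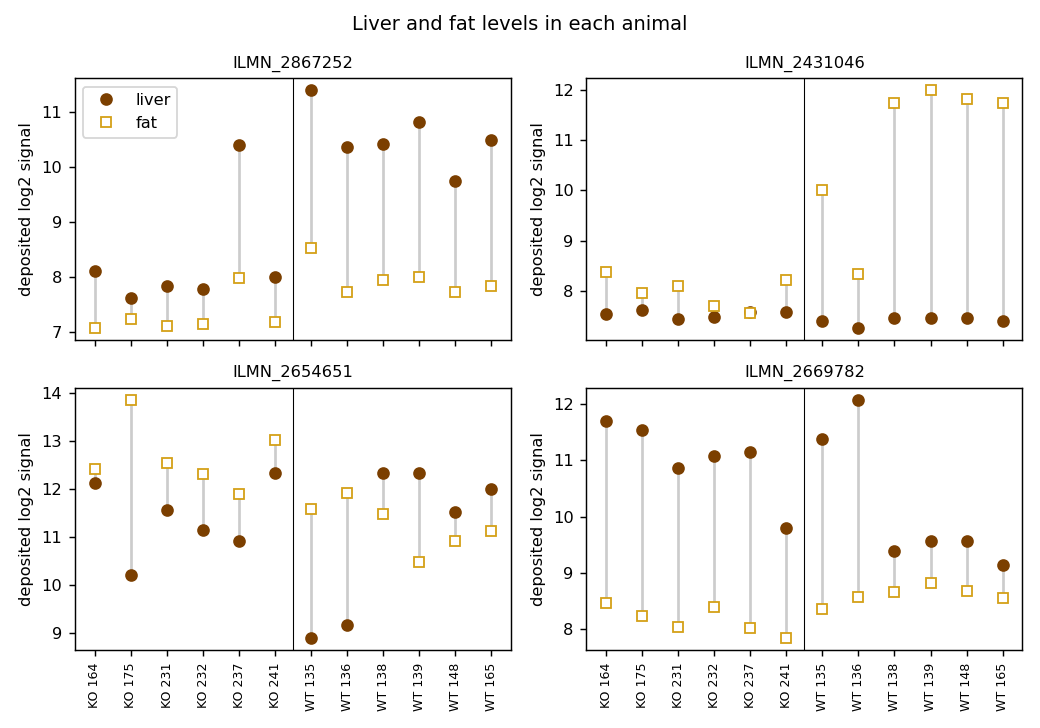
Deposited log2 signal in liver (filled circles) and fat (open squares) of each KO animal (left of the line) and WT animal (right) at 4 probes, with grey lines joining the tissues of an animal. KO_237 resembles WT at ILMN_2867252, WT_136 resembles KO at ILMN_2431046, and WT_135 and WT_136 differ from the other WT livers at ILMN_2654651 and ILMN_2669782.

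Arrays outside the 24 gave a partial second reading of the liver side. In the 4 livers of animals without fat (2 KO, 2 WT), KO minus WT had the sign of the paired livers at 39 of the 60 probes (65%), against 52.6% of all tested probes. Among the 21 probes with the larger change in liver it was 15 (71.4%). The share over all tested probes with the larger change in liver is not given. In brain cortex, KO minus WT had the sign of the fat change at 18 of the 39 probes with the larger change in fat (46.2%, against 49.4% of all tested probes) in 9 of the same animals, and at 16 of 39 (41%, against 50.5%) in the 7 other animals. These counts were not tested.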

How the data were processed

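Total RNA of liver and white adipose tissue was hybridised as biotinylated cRNA to Illumina mouse beadchips, per the labels' protocols. The authors deposited non-normalized intensities, per the file headers, and beside each a detection score from 0 to 1. This deposited fraction rose with the signal (rank correlation 0.969 or higher on the 24 arrays) and was taken as 1 minus a detection p. For the authors' processed log2 values the submitters' processing notes name lumi, without a version. Their sorted values agreed within 0.0105 between livers and within 0.0077 between fats, so each tissue was quantile normalized on its own. No source used here names the transform, and a variance-stabilising one would compress the differences of dim probes.

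Probes detected (detection p under 0.05) on at least 6 of 24 arrays were tested, each identifier as its own row. The 12 within-animal differences were fitted with a KO and a WT mean in limma 3.58.1 (R 4.3.3; lmFit, eBayes with an intensity trend, two-sided, Benjamini-Hochberg), which was tested on simulated data. The labels do not state that the number is an animal's. Liver and fat deviations from the group means correlated at -0.14 to 0.30 within a number, and 6 of 12 livers correlated best with their own fat. Per-animal values were compared by exact permutation over animals.

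The text names, among probes detected everywhere, the 2 highest and 2 lowest in WT liver minus fat and the 2 largest and 2 smallest in its SD; the 2 most extreme detected in liver alone and the 2 in fat alone; the 2 positive and 2 negative probes of smallest p for KO minus WT; and 2 of opposite direction. The members, lists and rules were chosen with earlier results of these data known. The number of arrays limits the precision. A p-value here covers only the spread between these animals, each with 1 array a tissue. Alternatives were other background correction, scaling, filters, pairing, weights and animals. No sequences are printed, because gene names paired with the identifiers did not follow the tissues.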

Additional observations from a re-analysis of the deposited data

Results flagged for a closer look

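Liver against fat, the KO effect differed at 60 probes by limma's test of the difference itself. Those named were ILMN_2701486 (KO minus WT of liver minus fat 0.85 log2), ILMN_2711743 (1.23), ILMN_3154640 (-0.62), ILMN_2867252 (-1.58), ILMN_2824760 (0.95) and ILMN_2431046 (3.09).

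Of 40 groups of 6 animals examined at the named probes and per-animal measures, 5 held 1 animal far from the others. The cut-off gives about 1 in 20 in unselected, independent groups. These groups share animals and their probes were chosen from the same data, so the count is a description. KO_237 stood at 2.42 for ILMN_2867252, against 0.38 to 1.05 in the other KO animals. It stood at 1.01 for ILMN_2711743, against 1.38 to 1.56. KO_175 stood at -3.66 for ILMN_2654651, against -1.18 to -0.29, and at -4.66 for ILMN_1233896, against -5.80 to -5.48. WT_135 stood at 7.36 for ILMN_2655871, against 7.90 to 8.12 in the other WT animals.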

How the results depend on the processing

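The count of probes whose liver minus fat differed between KO and WT was 60. It was 125 with background correction of the intensities, 116 with detection required on all 24 arrays, 250 with array weights, 0 among animals below 200 alone (limma; 1156 at an unadjusted p under 0.05) and 0 to 384 with 1 animal left out. With no replicate block, so without pairing by animal, it was 52, and with the animal as a random replicate block 76 (correlation within an animal 0.06). Plain log2 values, an alternative added after the data were seen, gave 74. The cause of these moves was not tested. Of the 60 probes, 57 passed with background correction, 57 after joint normalization and 35 without the block. Without the filter the counts between tissues were 22470 in KO and 22651 in WT, of 25697 probes tested. Liver was higher at 18774 of these in KO and 18823 in WT. The undetected probes with the offset described above are then among those tested. With detection on all arrays the counts between tissues were 5935 in KO and 6090 in WT, of 8085 probes tested. Those over 1 log2 were 4578 in KO and 4806 in WT with background correction (median absolute difference 0.59 in KO and 0.63 in WT), and 1430 in KO and 1518 in WT with detection on all arrays, against 2389 in KO and 2528 in WT. The median absolute difference lay between -0.0216 and -0.0131 (KO minus WT) with 1 animal left out, and did not pass in 10 of the 12 fits. The share over 1 log2 differed by -1.41 points below 200 and did not pass. The WT mean of ILMN_2654651, which did not pass at -0.21, was -0.63 to 0.30 with 1 animal left out, with 0.28 without WT_135 and 0.30 without WT_136. At the 6 probes named for KO minus WT, 107 alternative values kept direction and threshold and 28 no longer passed. The 12 probes named for WT kept both in 270 of 272. Dim probes near background limit the sizes.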
